A study of Homo sapiens with 36 samples.

Results

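The 36 genes described here make and police the folding environment of the endoplasmic reticulum (ER). They were chosen by name among the 37549 named genes of the count table, with earlier results of these data known. They comprise 11 chaperones and co-chaperones, 6 disulfide isomerases and oxidases, 4 stress sensors and membrane-bound transcription factors, 8 genes of ER-associated degradation, and 7 genes of translocation, signal peptide cleavage and export. RNA was sequenced from 3 human B-cell leukaemia lines, MEC1 (p53 mutated) and JVM2 and EHEB (both p53 wild-type). Each line received the vehicle dimethyl sulphoxide (DMSO), 50 µM fludarabine, 5 µM ibrutinib or 10 µM idelalisib, with 3 libraries per group and 36 libraries in all. Fludarabine is a purine analogue, ibrutinib inhibits the kinase BTK and idelalisib inhibits a phosphoinositide 3-kinase, both of which act below the B-cell receptor. MEC1 was exposed for 48 h, JVM2 for 72 h and EHEB for 96 h, so a difference between lines cannot be told apart from one between times. The libraries of the kinase inhibitors carry a separate run of library numbers that holds no DMSO library, so a difference between these runs cannot be told apart from the drugs' effect. Idelalisib and ibrutinib lie in the same run.

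Proteins bound for secretion or for membranes enter the ER through the SEC61 channel, lose their signal peptide, and fold with the help of chaperones and of enzymes that form disulfide bonds. When unfolded proteins build up, the sensors IRE1 (ERN1), PERK (EIF2AK3) and ATF6 start the unfolded protein response: IRE1 splices the XBP1 mRNA, PERK slows translation and favours ATF4, and ATF6 is cut to release a transcription factor. These arms raise chaperones and the machinery that sends misfolded proteins to the proteasome. In the B lineage the response is best known from plasma cells, which secrete antibody.

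The ER stress response element (ERSE), a CCAAT half-site and a CCACG half-site 9 bases apart, and the ERSE-II, an ATTGG half-site and a CCACG half-site 1 base apart, are bound by ATF6 and XBP1 together with NF-Y. RefSeq promoter windows (GRCh38.p14, from 250 bases before to 50 bases after the start) matched 32 of the 36 genes; PDIA3, DERL1, DERL3 and SEC24D had none. Searched on both strands, the ERSE lay in 6 of the 32 windows (18.8%) against 22 of 27305 windows of the whole table (0.0806%), and the ERSE-II in 3 (9.38%) against 15 (0.0549%). The 32 windows are among the 27305, and the genes were chosen by name, so these shares are a description without a test. The 3 windows of HSPA5, HYOU1 and HSP90B1 are shown for their 250 bases before the start. They read 5′ to 3′ on the strand of the gene, with the half-sites in capitals:
HSPA5, chr9:125241344-125241593, minus strand: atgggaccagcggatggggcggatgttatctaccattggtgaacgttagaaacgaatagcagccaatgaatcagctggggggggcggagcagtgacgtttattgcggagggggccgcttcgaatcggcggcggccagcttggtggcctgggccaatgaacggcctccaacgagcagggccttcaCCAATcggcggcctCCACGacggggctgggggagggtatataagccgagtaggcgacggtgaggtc
HYOU1, chr11:119057206-119057455, minus strand: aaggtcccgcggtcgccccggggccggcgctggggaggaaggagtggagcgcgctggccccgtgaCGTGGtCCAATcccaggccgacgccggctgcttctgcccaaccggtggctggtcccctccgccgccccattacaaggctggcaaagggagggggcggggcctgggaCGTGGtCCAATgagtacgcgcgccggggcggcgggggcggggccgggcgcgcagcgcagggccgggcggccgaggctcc
HSP90B1, chr12:103930160-103930409, plus strand: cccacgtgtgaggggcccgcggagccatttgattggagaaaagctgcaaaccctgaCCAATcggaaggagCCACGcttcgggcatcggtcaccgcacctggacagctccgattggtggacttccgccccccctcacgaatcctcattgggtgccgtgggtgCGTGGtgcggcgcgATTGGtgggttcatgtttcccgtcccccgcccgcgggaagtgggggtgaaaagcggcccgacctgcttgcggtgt
HSP90B1 holds a pair of ERSE matches, one on each strand, and HYOU1 a pair of ERSE-II matches, which on the strand of the gene read as CGTGG followed by CCAAT. The 6 other genes with a match are shown by the match alone, read on the strand where it lies, for comparison of the bases between the half-sites:
ERO1B, chr1:236282183-236282201: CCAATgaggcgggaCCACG
CANX, chr5:179698778-179698796: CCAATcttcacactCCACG
CALR, chr19:12938384-12938402: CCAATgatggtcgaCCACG
CRELD2, chr22:49918554-49918572: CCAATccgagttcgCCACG
HERPUD1, chr16:56932025-56932035: ATTGGgCCACG
SDF2L1, chr22:21642114-21642124: ATTGGtCCACG
A further motif, TGACGTGG (the core of the unfolded protein response element), lay in 1 of the 32 windows, that of HYOU1, where it overlaps an ERSE-II match, and in 0.795% of all windows. The single half-sites were common: CCAAT lay in 26 of the 32 windows (81.2%) against 35.7% of all, and CCACG in 22 (68.8%) against 37.9%. A match describes letters in a window and is not a measured site.

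Total counts ranged from 26590705 to 53538925 per library with a median of 42114145. The count of a member in a library was never below 6. All 36 genes passed the filter on low counts in each line, where 17516 (MEC1), 17508 (JVM2) and 17748 (EHEB) genes were tested. Levels are counts scaled to library size and TMM factor within a line (CPM), and log2 fold changes are given with their standard error. Adjusted p is from the quasi-likelihood test of edgeR with Benjamini-Hochberg adjustment over all genes tested. A gene was called at an adjusted p below 0.05. The study's methods give at least 3 independent experiments for results other than glucuronidation assays, without tying this to the libraries. Whether the 3 libraries of a group came from separate cultures is not stated, so p-values measure the spread between these libraries. In bulk RNA, fewer cells and less RNA per cell cannot be told apart. B-cell markers were expressed in every group, with MS4A1, CD79A, CD79B, PAX5 and CD22 summing to between 596 and 1617 CPM per library. With fludarabine this sum lay between 596 and 949 CPM in JVM2 and EHEB, against 1161 to 1564 with DMSO, and in MEC1 it lay between 915 and 979 CPM with DMSO and between 1450.0 and 1617 with the kinase inhibitors. The 4 T-cell markers summed to at most 15.6 CPM, the 4 myeloid markers to at most 5.94, the 3 NK markers to at most 74.2, the 2 epithelial markers to at most 18.3 and the 2 erythroid markers to at most 0.407. CD3D, CD3G, CD14, LYZ, MPO and HBB did not pass the filter in any line. The part of these marker levels in the results was not tested. Per kilobase of exon, the most abundant members with DMSO were CANX, HSPA5 and HSP90B1 in MEC1 (389, 385 and 375 CPM per kb), P4HB, CALR and HSP90B1 in JVM2 (310.1, 274 and 229) and CALR, HSP90B1 and CANX in EHEB (347, 204 and 157).

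Most genes measured evenly across libraries of a group. Over the 432 combinations of gene and group, the median ratio of the highest to the lowest library was 1.11, and it was above 2 in 6 of them. Of those, 4 were CREB3L2, a membrane-bound transcription factor of the secretory pathway, and 2 were DERL3, the scarcest member in JVM2 and EHEB. CREB3L2 with ibrutinib in MEC1 measured 194.8, 185.7 and 46.3 CPM, with idelalisib in MEC1 179.7, 203.9 and 53.5. With idelalisib in JVM2 it measured 69.3, 68.7 and 259.1 and with DMSO in EHEB 28.8, 102.9 and 99.6. One library stood apart in each of those groups. The 3 DMSO libraries of JVM2 measured 217.8, 220.8 and 215.4 CPM. The call with fludarabine in EHEB (log2 fold change −0.98 ± 0.34 (adjusted p = 0.0453)) was lost without any 1 of 5 of its 6 libraries (adjusted p between 0.0900 and 0.164), and was −1.38 without EHEB_133, the low DMSO library.

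The ER folding genes were called more often lower than higher in each comparison with DMSO. With fludarabine in JVM2 and EHEB the excess was small and did not hold under other settings. In JVM2 it turned to 16 higher and 13 lower with a mean CPM of at least 5, to 14 and 13 without the library JVM2_96, and with scaling by library size alone. In EHEB it became 11 and 11 with a mean CPM of at least 5 and 9 and 9 without EHEB_142, and turned with library size alone, as it did with ibrutinib. In MEC1, fludarabine called 4 members higher and 20 lower, against 21.2% and 22.7% of all genes tested. Ibrutinib called 5 higher and 23 lower, against 23.7% and 23.9%. Idelalisib called 7 higher and 17 lower, against 27.6% and 27.4%. The corresponding calls in JVM2 were 13 higher and 15 lower with fludarabine (all genes 23.9% and 23.3%), 3 and 11 with ibrutinib (14.5% and 15.0%), and 8 and 13 with idelalisib (21.6% and 22.6%). In EHEB they were 10 higher and 12 lower with fludarabine (18.4% and 19.2%), 4 and 8 with ibrutinib (8.50% and 11.2%), and 4 and 14 with idelalisib (15.1% and 18.2%). The median log2 fold change of the 36 members was −0.29, −0.35 and −0.22 with fludarabine, ibrutinib and idelalisib in MEC1, −0.06, −0.10 and −0.07 in JVM2, and −0.03, −0.08 and −0.27 in EHEB, whereas the median of all genes tested lay between −0.00 and 0.08 in these 9 comparisons. Within each line, the same DMSO libraries served all 3 drugs.

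**Figure D1:**
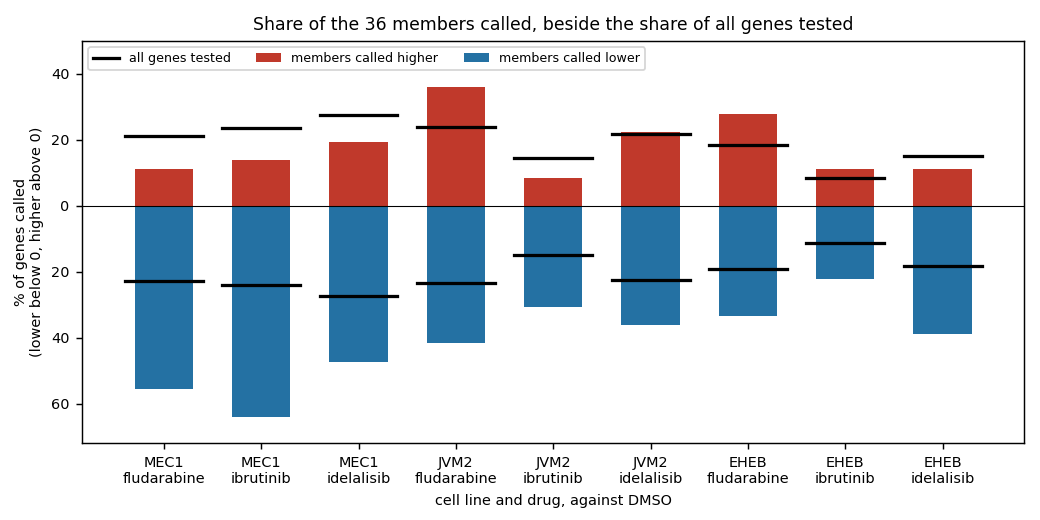
Percentage of the 36 genes called higher (red bars, above 0) and lower (blue bars, below 0) at an adjusted p below 0.05 in each comparison with DMSO, with black lines for the percentage of all genes tested. In MEC1 20, 23 and 17 of the genes were called lower, against 22.7%, 23.9% and 27.4% of all genes.

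Scaling changed the balance of these calls. With scaling by library size alone, without TMM, the median of all genes moved to 0.31, 0.26 and 0.13 with fludarabine in MEC1, JVM2 and EHEB, and the members called higher and lower became 7 and 14, 16 and 9, and 13 and 9. With ibrutinib they became 6 and 8 in JVM2 and 9 and 8 in EHEB, and with idelalisib 11 and 12 in JVM2 and 7 and 12 in EHEB. The counts for the kinase inhibitors in MEC1 were 6 and 21 with ibrutinib and 6 and 22 with idelalisib.

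**Figure D2:**
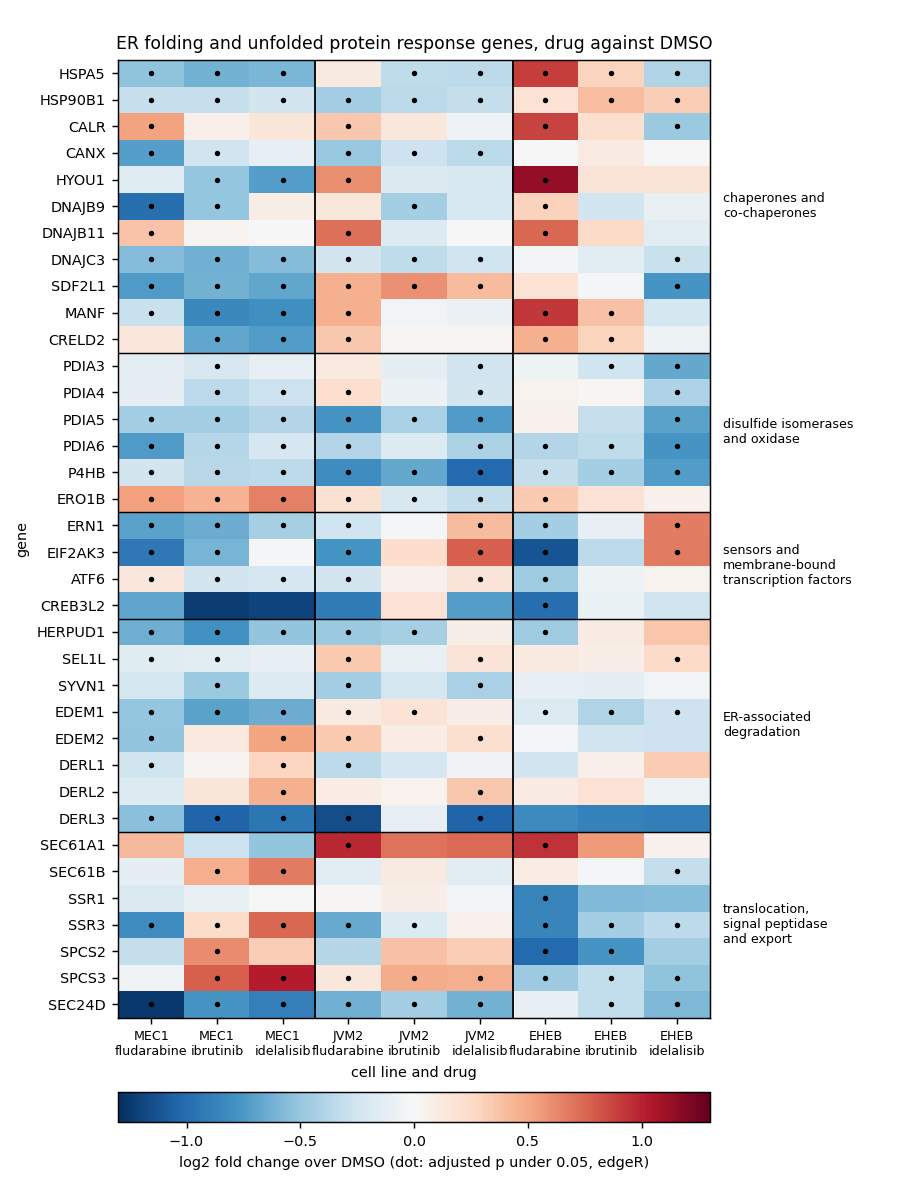
Log2 fold change over DMSO of the 36 genes, grouped by role, in the 9 comparisons of a drug with DMSO; dots mark an adjusted p below 0.05 in edgeR. P4HB, PDIA6 and SEC24D were lower in 9, 8 and 8 of the comparisons, and of the 11 chaperones 8 were higher with fludarabine in EHEB and 9 and 7 lower with ibrutinib and idelalisib in MEC1.

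Among the 11 chaperones and co-chaperones, more were called higher than lower with fludarabine and ibrutinib in EHEB and with fludarabine in JVM2, and more were called lower than higher in the other comparisons with DMSO. With fludarabine, EHEB had 8 called higher and 0 lower, against 18.4% and 19.2% of all genes tested. JVM2 had 6 and 3 (all genes 23.9% and 23.3%) and MEC1 2 and 7 (21.2% and 22.7%). The median log2 fold change was 0.47, 0.35 and −0.29 in EHEB, JVM2 and MEC1. With ibrutinib, MEC1 had 0 higher and 9 lower (23.7% and 23.9%). JVM2 had 1 and 5 (14.5% and 15.0%) and EHEB 4 and 0 (8.50% and 11.2%). With idelalisib, MEC1 had 0 and 7 (27.6% and 27.4%), JVM2 1 and 4 (21.6% and 22.6%), and EHEB 1 and 4 (15.1% and 18.2%). The shares of all genes for each line and drug apply to every list below. Counts near these shares are not read as a result about a list. Wherever edgeR called 0 genes of a role group in a direction against DMSO, at most 2 were in that direction at an unadjusted p below 0.05, and DESeq2 called at most 2.

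HSPA5 encodes BiP, the HSP70 of the ER lumen and a regulator of the sensors. In MEC1 it measured 1505, 1506 and 1512 CPM with DMSO and 1015, 1067 and 1073 with fludarabine. HSPA5 in MEC1 stood at 1032, 912 and 1017 with ibrutinib and 976, 998 and 1027 with idelalisib. Each drug group lay below all DMSO libraries, and log2 fold changes were −0.52 ± 0.05 (adjusted p = 2.00e-05), −0.61 ± 0.06 (adjusted p = 5.33e-06) and −0.59 ± 0.06 (adjusted p = 4.17e-06). In EHEB the same gene measured 362, 319 and 315 CPM with DMSO and 623, 628 and 599.6 with fludarabine. HSPA5 in EHEB stood at 407, 386 and 428 with ibrutinib and 255.7, 261.8 and 241.9 with idelalisib. Here fludarabine and ibrutinib stood above the DMSO libraries, at 0.89 ± 0.06 (adjusted p = 8.88e-07) and 0.29 ± 0.06 (adjusted p = 0.00667), and idelalisib stood below them, at −0.39 ± 0.06 (adjusted p = 5.87e-04). JVM2 gave 438, 462 and 476 CPM with DMSO and 515, 515 and 464 with fludarabine. HSPA5 in JVM2 stood at 383, 362 and 350.1 with ibrutinib and 375, 355 and 352 with idelalisib. Levels there were lower after ibrutinib (−0.33 ± 0.06) and idelalisib (−0.34 ± 0.06) without overlap, and overlapped DMSO after fludarabine (0.12 ± 0.06 (adjusted p = 0.100)).

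HSP90B1 is the ER form of HSP90. MEC1 measured 1023, 1076 and 1031 CPM with DMSO and 872, 867 and 812 with fludarabine. HSP90B1 in MEC1 stood at 855, 803 and 881 with ibrutinib and 882, 872 and 893 with idelalisib. Every drug library lay below every DMSO library. JVM2 measured 607, 637 and 669 CPM with DMSO and 484, 477 and 442 with fludarabine. HSP90B1 in JVM2 stood at 512, 511 and 477 with ibrutinib and 523, 509 and 515 with idelalisib. The same held in JVM2, and log2 fold changes in both lines were between −0.45 and −0.24. EHEB measured 601, 601 and 496 CPM with DMSO and 639, 647 and 644 with fludarabine. HSP90B1 in EHEB stood at 744, 728 and 771 with ibrutinib and 706, 711 and 703 with idelalisib. All drug libraries thus lay above the DMSO libraries, of which EHEB_135 was the lowest. The rise with fludarabine (0.18 ± 0.07 (adjusted p = 0.0457)) was 0.09 with an adjusted p of 0.129 without that library and was also lost without any 1 of the 3 fludarabine libraries, whereas the rises with ibrutinib (0.40 ± 0.07) and idelalisib (0.32 ± 0.07) were kept in each fit that left out a library.

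HYOU1, a large HSP70-like chaperone and nucleotide exchange factor for BiP, showed the largest rise of the 36 genes with fludarabine in EHEB. It measured 342, 344 and 334 CPM with DMSO and 783, 707 and 760.2 with fludarabine. HYOU1 in EHEB stood at 379, 361 and 407 with ibrutinib and 403, 411 and 334 with idelalisib. The fludarabine libraries stood above all others, with a log2 fold change of 1.14 ± 0.08 (adjusted p = 7.95e-07). In JVM2 it measured 325, 305 and 346 CPM with DMSO and 551, 500.4 and 435 with fludarabine (0.61 ± 0.10), whereas in MEC1 it stood at 319, 328 and 333 with DMSO and fell with ibrutinib (−0.50 ± 0.09) and idelalisib (−0.71 ± 0.09).

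MANF, a small ER protein that is secreted under stress, measured 128.1, 106.1 and 121.2 CPM with DMSO and 96.8, 97.4 and 97.3 with fludarabine in MEC1. MANF in MEC1 stood at 68.7, 57.6 and 73.0 with ibrutinib and 66.3, 67.5 and 70.6 with idelalisib. The kinase inhibitor libraries lay below all DMSO libraries, at −0.83 ± 0.09 and −0.80 ± 0.09, whereas the call with fludarabine (−0.29 ± 0.09 (adjusted p = 0.0237)) was lost in 5 of the 6 fits that left out a library, the exception being MEC1_38. With fludarabine in EHEB it rose from 27.4, 23.0 and 23.7 to 47.7, 46.6 and 46.4 CPM (0.92 ± 0.09 (adjusted p = 1.32e-05)). CALR, a lectin chaperone, rose with fludarabine in all 3 lines, by 0.52 ± 0.12, 0.35 ± 0.09 and 0.88 ± 0.13, and DNAJB11, a co-chaperone of BiP, by 0.37 ± 0.07, 0.72 ± 0.07 and 0.75 ± 0.09. DNAJC3, another co-chaperone that also restrains PERK, was called lower in 7 comparisons and higher in 0, and CANX, the membrane-bound lectin chaperone, lower in 5 and higher in 0.

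DNAJB9, a co-chaperone that takes part in BiP binding to IRE1, measured 103.7, 103.2 and 106.7 CPM with DMSO and 54.0, 55.2 and 49.8 with fludarabine in MEC1. DNAJB9 in MEC1 stood at 73.8, 75.3 and 72.2 with ibrutinib and 107.2, 104.6 and 120.3 with idelalisib. The fludarabine libraries were the lowest (−0.98 ± 0.07 (adjusted p = 7.83e-07)), ibrutinib lay between (−0.50 ± 0.07), and idelalisib overlapped DMSO. SDF2L1, a partner of DNAJB11, moved in opposite directions between lines. It measured 7.02, 7.58 and 6.62 CPM with DMSO and 10.6, 10.1 and 8.62 with fludarabine in JVM2. SDF2L1 in JVM2 stood at 11.3, 9.46 and 11.2 with ibrutinib and 10.1, 9.06 and 9.10 with idelalisib. All drug groups lay above DMSO, with 0.59 ± 0.11 (adjusted p = 0.00195) for ibrutinib. In EHEB SDF2L1 measured 12.2, 11.4 and 12.8 CPM with DMSO and 13.9, 15.1 and 12.5 with fludarabine. SDF2L1 in EHEB stood at 11.1, 10.2 and 14.2 with ibrutinib and 8.38, 6.66 and 6.32 with idelalisib. Only idelalisib was called there (−0.77 ± 0.15 (adjusted p = 0.00204)).

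**Figure D3:**
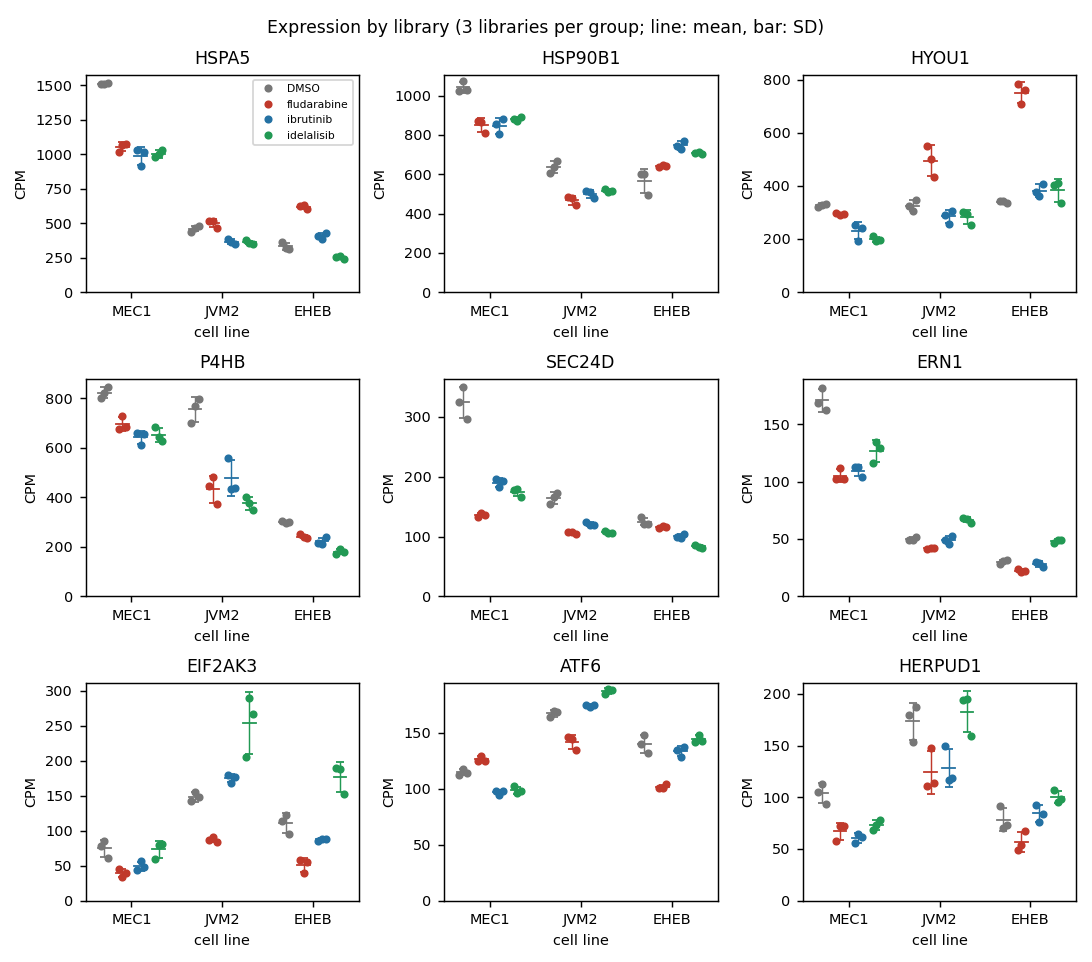
CPM of 9 genes in each library of MEC1, JVM2 and EHEB, by treatment; circles are the 3 libraries of a group, the short line their mean and the bar the SD. HSPA5 falls with each drug in MEC1 and rises with fludarabine in EHEB, and EIF2AK3 and ERN1 are highest with idelalisib in JVM2 and EHEB.

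The isomerases and the oxidase were called lower more often than higher with the kinase inhibitors in each line. With fludarabine the excess in JVM2 and EHEB was small and is not read as a result. In MEC1 the calls were 1 and 3 (higher and lower) with fludarabine, 1 and 5 with ibrutinib and 1 and 4 with idelalisib. JVM2 gave 2 and 3, then 0 and 3, then 0 and 6 for the drugs in that order, and EHEB 1 and 2, then 0 and 3, then 0 and 5. P4HB, the founding protein disulfide isomerase, was the sole member called lower in all 9 comparisons. Of the secretory and heat shock genes listed below, DNAJC1 and SEC24A were also called lower in all 9, and DNAJA1 higher in all 9. The share of all genes called in the same direction over the 9 comparisons was not counted. Counts over the 9 comparisons, here and for other genes, are descriptions without such a share. For P4HB, only with fludarabine in MEC1 did another scaling (library size alone) give a value of the other sign, 0.01. In MEC1 P4HB measured 803, 822 and 846 CPM with DMSO and 676, 731 and 684 with fludarabine. P4HB in MEC1 stood at 659, 613 and 657 with ibrutinib and 683, 643 and 627 with idelalisib. No drug library of MEC1 reached the lowest DMSO library. JVM2 measured 701, 771 and 796 CPM with DMSO and 444, 481 and 373 with fludarabine. P4HB in JVM2 stood at 560.2, 436 and 436 with ibrutinib and 401, 377 and 348 with idelalisib. The drug libraries were again all below DMSO, with ibrutinib the most spread out. EHEB measured 305, 298 and 299 CPM with DMSO and 250.9, 238.2 and 236.5 with fludarabine. P4HB in EHEB stood at 216.1, 210.7 and 239.3 with ibrutinib and 171.3, 191.7 and 180.4 with idelalisib. EHEB too showed no overlap with DMSO. The smallest change was with fludarabine in MEC1 (−0.24 ± 0.05 (adjusted p = 0.00410)) and the largest with idelalisib in JVM2 (−1.01 ± 0.12 (adjusted p = 4.22e-05)).

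PDIA6, an isomerase that also binds activated sensors and whose exons overlap those of ATP6V1C2 in the annotation, measured 219.0, 210.5 and 207.1 CPM with DMSO and 169.4, 164.0 and 155.9 with fludarabine in EHEB. PDIA6 in EHEB stood at 165.1, 159.7 and 181.7 with ibrutinib and 130.5, 123.8 and 119.6 with idelalisib. Idelalisib was the lowest (−0.77 ± 0.06 (adjusted p = 3.08e-06)). Over the 9 comparisons it was called lower in 8, the exception being ibrutinib in JVM2 (−0.18 ± 0.07 (adjusted p = 0.0768)). PDIA5 was called lower in 7 comparisons, and PDIA3, the isomerase that works with the lectin chaperones, and PDIA4 in 4 each, PDIA4 being higher with fludarabine in JVM2 (0.22 ± 0.05). ERO1B, the oxidase that recharges the isomerases, differed from them. It rose in MEC1 with fludarabine (0.53 ± 0.06), ibrutinib (0.45 ± 0.06) and idelalisib (0.66 ± 0.06), from 39.7, 42.2 and 37.6 CPM with DMSO to 62.9, 60.0 and 65.2 with idelalisib, and fell with idelalisib in JVM2 (−0.32 ± 0.07).

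Among the 4 sensors and membrane-bound transcription factors the calls were 1 and 2 (higher and lower) with fludarabine, 0 and 3 with ibrutinib and 0 and 2 with idelalisib in MEC1. JVM2 gave 0 and 3, then 0 and 0, then 3 and 0 for the drugs in that order, and EHEB 0 and 4, then 0 and 0, then 2 and 0. EIF2AK3 and ERN1 fell with fludarabine in all 3 lines. EIF2AK3 (PERK) measured 113.7, 122.9 and 94.6 CPM with DMSO and 58.1, 40.0 and 54.4 with fludarabine in EHEB. EIF2AK3 in EHEB stood at 85.7, 87.7 and 88.5 with ibrutinib and 189.9, 188.6 and 152.2 with idelalisib. The fludarabine libraries lay below all others (−1.12 ± 0.14 (adjusted p = 8.64e-05)) and the idelalisib libraries above all others (0.68 ± 0.14 (adjusted p = 0.00322)). In JVM2 it measured 141.9, 155.9 and 148.0 CPM with DMSO and 86.1, 90.5 and 84.3 with fludarabine. EIF2AK3 in JVM2 stood at 178.9, 168.0 and 177.2 with ibrutinib and 205.3, 290.0 and 267.3 with idelalisib. The change was −0.77 ± 0.10 for fludarabine and 0.77 ± 0.10 for idelalisib. The ibrutinib libraries lay above DMSO but were not called (0.23 ± 0.10 (adjusted p = 0.116)). MEC1 gave 77.6, 85.5 and 61.2 CPM with DMSO and 45.3, 33.2 and 39.2 with fludarabine. EIF2AK3 in MEC1 stood at 43.8, 56.2 and 47.6 with ibrutinib and 59.6, 79.4 and 81.2 with idelalisib. Fludarabine (−0.93 ± 0.16) and ibrutinib (−0.60 ± 0.16) were lower and idelalisib overlapped DMSO.

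ERN1 (IRE1) measured 168.0, 181.5 and 162.6 CPM with DMSO and 102.0, 111.7 and 101.8 with fludarabine in MEC1. ERN1 in MEC1 stood at 112.3, 112.4 and 103.6 with ibrutinib and 116.4, 134.3 and 128.9 with idelalisib. All drugs lay below DMSO, at −0.70 ± 0.07 (adjusted p = 1.62e-05), −0.64 ± 0.07 (adjusted p = 2.54e-05) and −0.43 ± 0.07 (adjusted p = 3.43e-04). JVM2 measured 49.4, 48.7 and 52.0 CPM with DMSO and 41.0, 42.3 and 42.0 with fludarabine. ERN1 in JVM2 stood at 49.3, 45.7 and 52.3 with ibrutinib and 68.2, 67.7 and 64.3 with idelalisib. Idelalisib stood above and fludarabine below all DMSO libraries. EHEB measured 28.5, 30.7 and 31.8 CPM with DMSO and 23.5, 21.4 and 22.3 with fludarabine. ERN1 in EHEB stood at 29.9, 29.3 and 25.6 with ibrutinib and 46.3, 48.7 and 49.0 with idelalisib. In both of these lines ERN1 was lowest with fludarabine (−0.26 ± 0.06 and −0.44 ± 0.08) and highest with idelalisib (0.42 ± 0.06 and 0.66 ± 0.08), while the ibrutinib libraries overlapped DMSO.

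ATF6 measured 112.2, 117.6 and 113.8 CPM with DMSO and 124.6, 129.1 and 125.0 with fludarabine in MEC1. ATF6 in MEC1 stood at 97.5, 94.7 and 97.8 with ibrutinib and 102.0, 96.0 and 98.0 with idelalisib. Fludarabine lay above DMSO by 0.14 ± 0.05 (adjusted p = 0.0338), a call lost in 5 of the 6 fits that left out a library (the exception being MEC1_38), and the kinase inhibitors lay below by −0.24 ± 0.05 and −0.22 ± 0.05. JVM2 measured 163.7, 169.3 and 168.4 CPM with DMSO and 146.1, 144.2 and 134.4 with fludarabine. ATF6 in JVM2 stood at 174.5, 172.7 and 175.0 with ibrutinib and 184.6, 188.8 and 188.6 with idelalisib. Fludarabine lay below (−0.24 ± 0.04) and idelalisib above DMSO (0.16 ± 0.04). EHEB measured 140.1, 148.1 and 131.5 CPM with DMSO and 100.2, 100.8 and 103.8 with fludarabine. ATF6 in EHEB stood at 134.9, 128.4 and 137.3 with ibrutinib and 141.2, 148.2 and 142.9 with idelalisib. Fludarabine alone was called there (−0.46 ± 0.05 (adjusted p = 3.99e-05)).

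Of the 8 genes of ER-associated degradation, the calls were 0 and 6 (higher and lower) with fludarabine, 0 and 5 with ibrutinib and 3 and 3 with idelalisib in MEC1. JVM2 gave 3 and 4, then 1 and 1, then 3 and 2 for the drugs in that order, and EHEB 0 and 2, then 0 and 1, then 1 and 1. HERPUD1, a membrane protein that gathers the degradation machinery, measured 105.1, 113.2 and 93.9 CPM with DMSO and 57.6, 71.9 and 72.0 with fludarabine in MEC1. HERPUD1 in MEC1 stood at 55.6, 64.1 and 61.8 with ibrutinib and 67.8, 73.4 and 78.3 with idelalisib. All drugs lay below DMSO (−0.63 ± 0.10, −0.78 ± 0.10 and −0.51 ± 0.10). JVM2 measured 179.5, 153.4 and 187.4 CPM with DMSO and 110.4, 147.9 and 114.1 with fludarabine. HERPUD1 in JVM2 stood at 150.0, 117.0 and 118.4 with ibrutinib and 193.9, 194.7 and 159.5 with idelalisib. Fludarabine and ibrutinib lay below the DMSO libraries there. EHEB measured 91.2, 70.6 and 72.9 CPM with DMSO and 49.0, 53.8 and 67.0 with fludarabine. HERPUD1 in EHEB stood at 92.9, 76.3 and 83.9 with ibrutinib and 106.6, 95.2 and 98.6 with idelalisib. In both lines fludarabine lay below DMSO at −0.48 ± 0.14 (adjusted p = 0.0145) and −0.47 ± 0.13 (adjusted p = 0.0147). Idelalisib overlapped DMSO in JVM2 and lay above it in EHEB without a call (0.36 ± 0.13 (adjusted p = 0.0550)). The fludarabine calls were lost in 3 of the 6 fits that left out a library in each of these lines, and the one with ibrutinib in JVM2 (−0.43 ± 0.14 (adjusted p = 0.0382)) in 4 of 6.

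DERL3, a retrotranslocation factor typical of secretory cells, has exons that overlap those of SMARCB1 on the opposite strand in the annotation, and whether the counting used strand is not given in the sources used here. It measured 25.8, 25.9 and 22.0 CPM with DMSO and 18.5, 15.7 and 16.3 with fludarabine in MEC1. DERL3 in MEC1 stood at 12.5, 10.9 and 12.4 with ibrutinib and 13.6, 12.3 and 12.5 with idelalisib. The change was −1.04 ± 0.10 (adjusted p = 8.32e-06) for ibrutinib. SEL1L and SYVN1, partners in a ubiquitin ligase, did not move alike: with fludarabine in JVM2, SEL1L rose by 0.34 ± 0.04 and SYVN1 changed by −0.45 ± 0.14. EDEM1, which trims mannose from misfolded glycoproteins, was called lower in 6 comparisons and higher in 2, with −0.70 ± 0.06 for ibrutinib in MEC1. EDEM2 and DERL2 were called higher with idelalisib in MEC1 (0.52 ± 0.08 and 0.46 ± 0.10).

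With the kinase inhibitors, translocation, signal peptidase and export genes were called more often higher in MEC1 and more often lower in EHEB. With fludarabine they were called more often lower in EHEB. The 2 lower calls with fludarabine in MEC1 lay near the share of all genes (22.7%) and are not read as a result. Of these 7 genes the calls were 0 and 2 (higher and lower) with fludarabine, 4 and 1 with ibrutinib and 3 and 1 with idelalisib in MEC1. JVM2 gave 2 and 2, then 1 and 2, then 1 and 1 for the drugs in that order, and EHEB 1 and 4, then 0 and 4, then 0 and 4. SPCS3, a subunit of the signal peptidase, measured 308, 319 and 318 CPM with DMSO and 313, 296 and 308 with fludarabine in MEC1. SPCS3 in MEC1 stood at 516, 546 and 560.3 with ibrutinib and 656, 611 and 647 with idelalisib. Fludarabine overlapped DMSO and both kinase inhibitors lay above it (1.02 ± 0.05 (adjusted p = 6.66e-08) for idelalisib). In EHEB it fell with each drug (−0.48 ± 0.07, −0.32 ± 0.07 and −0.52 ± 0.07). SSR3, part of the translocon-associated complex, measured 316, 315 and 291 CPM with DMSO and 166.4, 167.5 and 173.9 with fludarabine in EHEB. SSR3 in EHEB stood at 230.1, 219.2 and 231.7 with ibrutinib and 264.7, 235.2 and 230.1 with idelalisib. Fludarabine was the lowest (−0.86 ± 0.06 (adjusted p = 8.71e-07)) and ibrutinib gave −0.44 ± 0.06 (adjusted p = 4.60e-04). In MEC1 it fell with fludarabine (−0.82 ± 0.06) and rose with idelalisib (0.75 ± 0.06).

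SPCS2, another signal peptidase subunit, measured 84.8, 67.9 and 80.2 CPM with DMSO and 40.6, 35.8 and 39.4 with fludarabine in EHEB. SPCS2 in EHEB stood at 48.8, 40.8 and 47.7 with ibrutinib and 74.7, 54.7 and 41.3 with idelalisib. Fludarabine (−1.01 ± 0.18 (adjusted p = 9.60e-04)) and ibrutinib (−0.76 ± 0.18 (adjusted p = 0.0113)) lay below DMSO, and the latter call was lost without EHEB_281 (−0.68, adjusted p = 0.0517). SEC61A1, the pore of the channel, whose exons overlap those of RUVBL1, measured 164.4, 181.5 and 182.7 CPM with DMSO and 498, 275.6 and 270.7 with fludarabine in JVM2. SEC61A1 in JVM2 stood at 181.9, 328 and 354 with ibrutinib and 187.9, 351 and 339 with idelalisib. One library of each kinase inhibitor stood at the DMSO level and the other two well above it. Fludarabine stood above DMSO by 0.98 ± 0.31 (adjusted p = 0.0241), with JVM2_94 the highest of its libraries. The value was 0.63 with an adjusted p of 0.114 without that library, and the call was also lost without any 1 of the 3 DMSO libraries. SEC24D, an adaptor of the COPII coat that carries cargo to the Golgi, measured 326, 349 and 297 CPM with DMSO and 132.8, 138.8 and 136.5 with fludarabine in MEC1. SEC24D in MEC1 stood at 195.6, 182.0 and 193.0 with ibrutinib and 178.0, 178.7 and 166.7 with idelalisib. Every drug group lay below DMSO there, by −1.25 ± 0.07 (adjusted p = 1.78e-07), −0.77 ± 0.06 and −0.89 ± 0.06, and the gene was called lower in 8 of 9 comparisons, the exception being fludarabine in EHEB (−0.11 ± 0.05 (adjusted p = 0.141)).

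The kinase inhibitors were compared with each other within their run of libraries. In EHEB, idelalisib gave 2 members higher and 14 lower than ibrutinib, against 6.77% and 9.09% of all genes tested. EIF2AK3 (1.02 ± 0.14 (adjusted p = 6.40e-04)) and ERN1 (0.76 ± 0.08 (adjusted p = 7.04e-05)) were the 2 higher ones, and among the lower ones were HSPA5 (−0.68 ± 0.06 (adjusted p = 4.00e-05)), CALR (−0.69 ± 0.13), SDF2L1 (−0.74 ± 0.15), MANF (−0.61 ± 0.09) and all 5 isomerases. The call of PDIA5 was lost in each of the 6 fits that left out a library (largest adjusted p = 0.104). The other sensors and membrane-bound factors, ATF6 and CREB3L2, and the chaperones HSP90B1, CANX, HYOU1, DNAJB9 and DNAJC3 were not called. In JVM2, 5 were higher and 4 lower (8.21% and 10.5% of all genes), with EIF2AK3 (0.54 ± 0.10) and ERN1 (0.44 ± 0.06) again higher. In MEC1, 6 were higher and 0 lower (6.01% and 9.37%), with DNAJB9 at 0.59 ± 0.07 (adjusted p = 8.16e-04) and SSR3 at 0.51 ± 0.05 (adjusted p = 7.80e-04). Beside the 0 lower ones in MEC1 by edgeR, 1 member, HYOU1 (−0.21 ± 0.09), was lower at an unadjusted p below 0.05, and DESeq2 called 0 lower and 9 higher. With scaling by library size alone the MEC1 calls became 2 higher and 2 lower.

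**Figure D4:**
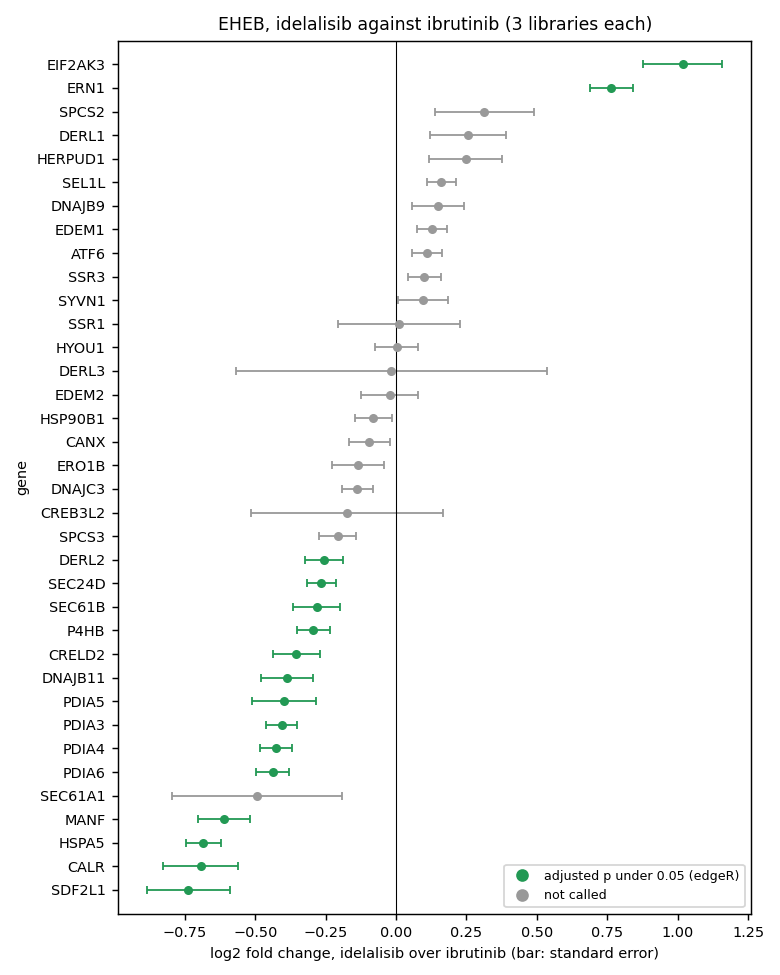
Log2 fold change of idelalisib over ibrutinib in EHEB for the 36 genes with its standard error (3 libraries each); green points have an adjusted p below 0.05. EIF2AK3 and ERN1 lie on the right at 1.02 and 0.76, and SDF2L1, CALR, HSPA5 and MANF at the left, between −0.74 and −0.61.

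Whether the lines responded differently was tested as an interaction of line and drug over the 18 libraries of DMSO and 1 drug. Members were called for fludarabine in 25 (39.1% of all genes tested), for ibrutinib in 23 (33.6%) and for idelalisib in 28 (45.7%). Members were not matched to all genes by expression level, here or against DMSO, and its part in the shares was not tested. Of the 36 genes, 10, 10 and 8 had a called interaction and calls in opposite directions in at least a pair of lines. Among all genes tested in each line and in the interaction, the shares were 9.51%, 6.70% and 14.9%.

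Of 15 regulators and effectors of the unfolded protein response outside the 36 genes, the calls were 0 and 6 (higher and lower) with fludarabine, 2 and 9 with ibrutinib and 3 and 9 with idelalisib in MEC1. JVM2 gave 5 and 3, then 2 and 6, then 3 and 8 for the drugs in that order, and EHEB 9 and 1, then 4 and 0, then 5 and 5. ATF4, the transcription factor raised by PERK, measured 93.8, 93.2 and 116.9 CPM with DMSO and 156.3, 157.5 and 169.4 with fludarabine in EHEB, without overlap (0.67 ± 0.09 (adjusted p = 1.27e-04)), and fell with fludarabine in MEC1 (−1.13 ± 0.07) and JVM2 (−1.06 ± 0.09). DDIT3 (CHOP), a target of ATF4 linked to cell death, was called higher in 1 and lower in 5 of the 9 comparisons with DMSO. It rose with fludarabine in EHEB (1.23 ± 0.17 (adjusted p = 1.31e-04)) and fell most with ibrutinib in MEC1 (−1.91 ± 0.27 (adjusted p = 1.48e-04)). ATF3 and CHAC1, further targets of this arm, gave 1.92 ± 0.28 and 2.27 ± 0.15 for fludarabine in EHEB, −2.69 ± 0.49 for ATF3 with ibrutinib and −2.48 ± 0.19 for CHAC1 with idelalisib in MEC1. XBP1, the factor spliced by IRE1, had uneven libraries, such as 366, 139.9 and 362 CPM with DMSO in EHEB, and was called only with idelalisib in MEC1 (0.60 ± 0.20 (adjusted p = 0.0214)). Gene counts do not separate spliced from unspliced XBP1.

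Among other genes of the secretory pathway, the 15 genes of COPII export and KDEL retrieval gave 1 and 6 (higher and lower) with fludarabine, 2 and 9 with ibrutinib and 3 and 10 with idelalisib in MEC1. JVM2 gave 2 and 7, then 0 and 9, then 0 and 11 for the drugs in that order, and EHEB 1 and 6, then 0 and 2, then 0 and 6. KDELR1, which returns chaperones to the ER, fell with each drug in JVM2 (−1.28 ± 0.08, −0.84 ± 0.07 and −1.04 ± 0.07), and SEC16A, which organises ER exit sites, fell with ibrutinib and idelalisib in MEC1 (−0.97 ± 0.06 and −1.27 ± 0.06). Of 19 translocon and signal recognition genes the calls were 1 and 11 (higher and lower) with fludarabine, 7 and 6 with ibrutinib and 9 and 7 with idelalisib in MEC1. JVM2 gave 4 and 4, then 1 and 4, then 3 and 8 for the drugs in that order, and EHEB 5 and 5, then 3 and 4, then 3 and 7. SEC61G, the small channel subunit, fell with fludarabine in MEC1 by 1.15 on the log2 scale, and SRP19, a signal recognition subunit, rose with idelalisib there (1.10 ± 0.17). Of 20 further folding enzymes the calls were 0 and 11 (higher and lower) with fludarabine, 5 and 7 with ibrutinib and 9 and 7 with idelalisib in MEC1. JVM2 gave 3 and 9, then 2 and 6, then 2 and 11 for the drugs in that order, and EHEB 1 and 10, then 0 and 7, then 2 and 7. They included SUMF2 with fludarabine in MEC1 (−1.18 ± 0.15), and in EHEB TXNDC5, an isomerase, fell from 821, 775 and 765 to 96.3, 98.0 and 98.1 CPM (−3.01 ± 0.33 (adjusted p = 2.85e-05)). Of 17 further degradation genes the calls were 6 and 7 (higher and lower) with fludarabine, 3 and 3 with ibrutinib and 6 and 2 with idelalisib in MEC1. JVM2 gave 6 and 3, then 5 and 4, then 5 and 3 for the drugs in that order, and EHEB 2 and 4, then 2 and 1, then 2 and 4. UBE2J1, the ubiquitin-conjugating enzyme of ER degradation, fell with fludarabine in EHEB (−1.95 ± 0.05 (adjusted p = 1.85e-09)), and VCP, the segregase of that pathway, with idelalisib in MEC1 (−0.94 ± 0.08). Of 15 genes of N-glycosylation (14 tested in JVM2) the calls were 3 and 10 (higher and lower) with fludarabine, 1 and 7 with ibrutinib and 6 and 5 with idelalisib in MEC1. JVM2 gave 1 and 7, then 1 and 6, then 1 and 8 for the drugs in that order, and EHEB 0 and 5, then 0 and 4, then 0 and 7. LMAN1, a cargo receptor for glycoproteins, fell with idelalisib in JVM2 (−1.06 ± 0.06), and MOGS, the first glucosidase, rose with idelalisib in MEC1 (1.11 ± 0.21). Wherever edgeR called 0 genes of these lists in a direction against DMSO, at most 1 was in that direction at an unadjusted p below 0.05, and DESeq2 called at most 1.

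The 9 members with an ERSE or ERSE-II match had a median log2 fold change of 0.34 with fludarabine in EHEB, with 6 called higher and 1 lower, beside −0.11 for the 23 other members with a window, with 4 higher and 11 lower. With ibrutinib and idelalisib in EHEB the medians were 0.19 and −0.15, then 0.01 and −0.27. In JVM2 they were 0.20 and −0.14 with fludarabine, but −0.21 and −0.03 with ibrutinib and −0.20 and −0.0019 with idelalisib, where the group with a match was the lower one. In MEC1 the medians were −0.29 and −0.29 with fludarabine, −0.50 and −0.34 with ibrutinib, and −0.51 and −0.18 with idelalisib. Of the 9 with a match, the calls in MEC1 were 2 and 5 (higher and lower), 1 and 7, and 1 and 6 for these drugs. JVM2 gave 5 and 3, 1 and 5, and 1 and 4. The 23 others gave 2 and 12, 4 and 13, and 5 and 9 in MEC1. In JVM2 they gave 8 and 9, 2 and 5, and 7 and 6. With ibrutinib and idelalisib, EHEB gave 3 and 0, then 1 and 3 with a match. The others there gave 1 and 6, then 3 and 9. These are descriptions of unequal groups of genes without a test. Of the members with a match, only ERO1B and HERPUD1 are not among the chaperones and co-chaperones. Motif and role were not separated.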

How the data were processed

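Ribosomal RNA-depleted total RNA from the treated lines was sequenced on Illumina instruments. Per the labels and the study's methods, the authors trimmed reads with Trimmomatic, aligned them to GRCh38 (hg38) with HISAT2 2.1, estimated counts with StringTie 1.3.4 and used edgeR 3.22.5. The sources used here do not give the annotation release or the strand setting. The deposited values are whole-number estimated counts per gene, 36 libraries in 12 groups. Estimated counts can split reads between overlapping genes and near-identical copies. The 1 blank entry (0.00384% of counts) was left out.

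Counts were fitted per line over its 12 libraries with edgeR 4.0.16 (R 4.3.3): filterByExpr (minimum count 10, minimum total 15), TMM and the quasi-likelihood test. Genes were called at an adjusted p below 0.05. Standard errors are the absolute log2 fold change over the square root of F. Interactions were fitted over 18 libraries. Alternatives were DESeq2 1.42.0, RLE size factors, library size alone, both filter settings (none, and a mean CPM of at least 5), the 6 libraries compared, and leaving out each library. Fits were tested on simulated data. Replicate pairs (36) had chi-square values of 19.5 to 38.2 per degree of freedom, and none was a duplicate. Library totals lay between 26590705 and 53538925 counts.

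The members and lists were chosen with earlier results of these data known. Values in each library are given for HSPA5, HSP90B1, HERPUD1, the 3 sensors, genes called one way in all 9 comparisons with DMSO, and the 2 called genes with the largest change in each (average log2 CPM of at least 1); from other lists XBP1, ATF4, DDIT3 and the 2 called genes with the largest change are named. The remaining members were named by role. From the other lists, genes called one way in all 9 comparisons with DMSO are also named. Exon overlaps and lengths come from a GENCODE annotation of the same build. A B-cell marker of the original list is not reported here, and the summed level leaves it out.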

Additional observations from a re-analysis of the deposited data

Results flagged for a closer look

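The response to each drug differed between the lines for the genes below, by the interaction test of edgeR over 18 libraries, with Benjamini-Hochberg adjustment over all genes tested. Values are log2 fold changes over DMSO for the lines in which the gene was called. Each line had its own exposure time, and these cannot be told apart.

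With fludarabine, the line by drug interaction was called for 25 of the 36 genes. Of the 36 genes, 10 had this call and opposite calls in a pair of lines, against 9.51% of genes tested in every line. HSPA5 was higher at 0.89 in EHEB and lower at −0.52 in MEC1 (interaction adjusted p = 1.28e-08). HSP90B1 was higher at 0.18 in EHEB and lower at −0.29 in MEC1 and −0.45 in JVM2 (interaction adjusted p = 3.61e-04). DNAJB9 was higher at 0.30 in EHEB and lower at −0.98 in MEC1 (interaction adjusted p = 2.02e-06). SDF2L1 was higher at 0.46 in JVM2 and lower at −0.73 in MEC1 (interaction adjusted p = 2.64e-04). MANF was higher at 0.47 in JVM2 and 0.92 in EHEB and lower at −0.29 in MEC1 (interaction adjusted p = 1.35e-06). ATF6 was higher at 0.14 in MEC1 and lower at −0.24 in JVM2 and −0.46 in EHEB (interaction adjusted p = 5.43e-06). SEL1L was higher at 0.34 in JVM2 and lower at −0.15 in MEC1 (interaction adjusted p = 2.31e-04). EDEM1 was higher at 0.12 in JVM2 and lower at −0.51 in MEC1 and −0.18 in EHEB (interaction adjusted p = 2.37e-05). EDEM2 was higher at 0.34 in JVM2 and lower at −0.52 in MEC1 (interaction adjusted p = 8.34e-05). SPCS3 was higher at 0.15 in JVM2 and lower at −0.48 in EHEB (interaction adjusted p = 7.47e-06).

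With ibrutinib, the line by drug interaction was called for 23 of the 36 genes. Of the 36 genes, 10 had this call and opposite calls in a pair of lines, against 6.70% of genes tested in every line. HSPA5 was higher at 0.29 in EHEB and lower at −0.61 in MEC1 and −0.33 in JVM2 (interaction adjusted p = 1.13e-05). HSP90B1 was higher at 0.40 in EHEB and lower at −0.30 in MEC1 and −0.35 in JVM2 (interaction adjusted p = 4.96e-05). SDF2L1 was higher at 0.59 in JVM2 and lower at −0.62 in MEC1 (interaction adjusted p = 5.03e-04). MANF was higher at 0.38 in EHEB and lower at −0.83 in MEC1 (interaction adjusted p = 3.67e-05). CRELD2 was higher at 0.29 in EHEB and lower at −0.67 in MEC1 (interaction adjusted p = 8.64e-05). ERO1B was higher at 0.45 in MEC1 and lower at −0.21 in JVM2 (interaction adjusted p = 0.00238). EDEM1 was higher at 0.18 in JVM2 and lower at −0.70 in MEC1 and −0.39 in EHEB (interaction adjusted p = 4.86e-07). SSR3 was higher at 0.24 in MEC1 and lower at −0.17 in JVM2 and −0.44 in EHEB (interaction adjusted p = 1.33e-05). SPCS2 was higher at 0.62 in MEC1 and lower at −0.76 in EHEB (interaction adjusted p = 0.00377). SPCS3 was higher at 0.78 in MEC1 and 0.48 in JVM2 and lower at −0.32 in EHEB (interaction adjusted p = 1.85e-07).

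With idelalisib, the line by drug interaction was called for 28 of the 36 genes. Of the 36 genes, 8 had this call and opposite calls in a pair of lines, against 14.9% of genes tested in every line. HSP90B1 was higher at 0.32 in EHEB and lower at −0.24 in MEC1 and −0.31 in JVM2 (interaction adjusted p = 2.16e-05). SDF2L1 was higher at 0.41 in JVM2 and lower at −0.68 in MEC1 and −0.77 in EHEB (interaction adjusted p = 5.33e-05). ERO1B was higher at 0.66 in MEC1 and lower at −0.32 in JVM2 (interaction adjusted p = 5.62e-06). ERN1 was higher at 0.42 in JVM2 and 0.66 in EHEB and lower at −0.43 in MEC1 (interaction adjusted p = 2.06e-07). ATF6 was higher at 0.16 in JVM2 and lower at −0.22 in MEC1 (interaction adjusted p = 1.23e-04). SEC61B was higher at 0.66 in MEC1 and lower at −0.31 in EHEB (interaction adjusted p = 1.92e-06). SSR3 was higher at 0.75 in MEC1 and lower at −0.34 in EHEB (interaction adjusted p = 7.15e-08). SPCS3 was higher at 1.02 in MEC1 and 0.47 in JVM2 and lower at −0.52 in EHEB (interaction adjusted p = 9.65e-09).

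Some of these calls within a line were lost in at least 1 fit that left out a library, namely HSP90B1 with fludarabine in EHEB (largest adjusted p = 0.129), DNAJB9 with fludarabine in EHEB (largest adjusted p = 0.114), MANF with fludarabine in MEC1 (largest adjusted p = 0.0900), ATF6 with fludarabine in MEC1 (largest adjusted p = 0.129), SEL1L with fludarabine in MEC1 (largest adjusted p = 0.114), EDEM1 with fludarabine in JVM2 (largest adjusted p = 0.159), EDEM1 with fludarabine in EHEB (largest adjusted p = 0.0754), SPCS3 with fludarabine in JVM2 (largest adjusted p = 0.122), MANF with ibrutinib in EHEB (largest adjusted p = 0.0573), CRELD2 with ibrutinib in EHEB (largest adjusted p = 0.104), ERO1B with ibrutinib in JVM2 (largest adjusted p = 0.170), EDEM1 with ibrutinib in JVM2 (largest adjusted p = 0.0508), SSR3 with ibrutinib in JVM2 (largest adjusted p = 0.0882), SPCS2 with ibrutinib in MEC1 (largest adjusted p = 0.113), SPCS2 with ibrutinib in EHEB (largest adjusted p = 0.0517) and SEC61B with idelalisib in EHEB (largest adjusted p = 0.0649). SEL1L with fludarabine in MEC1 was 0.10 with scaling by library size alone.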

How the results depend on the processing

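Of 222 calls of the 36 genes over 12 comparisons, 176 were kept in every fit that left out 1 library and 46 were lost in at least 1, and 177 were kept under every other alternative run (RLE size factors, library size alone, both filters, DESeq2 and the 6 libraries compared). The sign changed for 2, both with fludarabine in MEC1 and library size alone: P4HB to 0.0080 (adjusted p = 0.926) and SEL1L to 0.10 (adjusted p = 0.203). For idelalisib against ibrutinib in MEC1, 6 members were called, and 13 with a mean CPM of at least 5, 9 with DESeq2, 4 with library size alone and 4 in the fit of the 6 libraries. The cause was not tested. Leaving out 1 library gave 3 to 6 there (3 without MEC1_184 or MEC1_192) and, where 14 were called with all libraries, 9 to 15 for ibrutinib against DMSO in JVM2 (9 without JVM2_233).

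No paired analysis was possible because the groups share no library numbers. DESeq2 and the fit of 6 libraries were not run for the interactions. The 3 libraries of a group limit each comparison, and genes with uneven libraries, such as CREB3L2 and SEC61A1, have wide errors.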

Other observations

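The cytosolic and mitochondrial heat shock chaperones, which fold proteins outside the ER, gave, of 14 genes, 5 higher and 4 lower with fludarabine, 4 and 7 with ibrutinib and 3 and 10 with idelalisib in MEC1, 8 higher and 2 lower with fludarabine, 4 and 3 with ibrutinib and 3 and 5 with idelalisib in JVM2, and 8 higher and 0 lower with fludarabine, 5 and 1 with ibrutinib and 3 and 6 with idelalisib in EHEB. The 0 lower with fludarabine in EHEB by edgeR was also 0 at an unadjusted p below 0.05 and 0 by DESeq2. The shares of all genes called, for this list and the next, are those given above for each line and drug. HSPA1A and HSPA1B are near-identical copies between which reads may be split. Both were called lower with idelalisib in MEC1, at log2 fold changes of −2.17 and −2.15. With fludarabine in EHEB they stood at 1.11 ± 0.70 and 1.20 ± 0.09, of which HSPA1B was called. Over the 9 comparisons with DMSO, HSPA1A was called higher in 1 and lower in 2, and HSPA1B higher in 4 and lower in 4. Of 9 genes of the plasma cell programme the calls were 1 higher and 5 lower with fludarabine, 5 and 2 with ibrutinib and 5 and 2 with idelalisib in MEC1, 2 higher and 6 lower with fludarabine, 4 and 1 with ibrutinib and 4 and 2 with idelalisib in JVM2, and 1 higher and 7 lower with fludarabine, 2 and 4 with ibrutinib and 1 and 5 with idelalisib in EHEB. JCHAIN, the joining chain of secreted antibodies, measured 811, 589 and 693 CPM with DMSO and 24.0, 23.4 and 22.9 with fludarabine in EHEB, without overlap (−4.90 ± 0.12 (adjusted p = 1.74e-09), edgeR). CD38, a surface enzyme of plasma cells, measured 1.41, 1.65 and 1.94 CPM with DMSO and 7.68, 8.60 and 9.07 with fludarabine in MEC1. CD38 in MEC1 stood at 10.00, 9.62 and 11.7 with ibrutinib and 9.40, 10.4 and 9.74 with idelalisib. Log2 fold changes were 2.65 for ibrutinib and 2.56 ± 0.14 (adjusted p = 1.03e-07, edgeR) for idelalisib. Over the 9 comparisons with DMSO, CD38 was called higher in 6 and lower in 3, with values from −1.23 to 2.65.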
